A study of Mus musculus with 16 samples.

Results

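The genes described here are the 26 integrin chains of the mouse that the expression table lists and 10 cytoplasmic proteins that sit under integrins at adhesion sites, 36 genes of the 48316 gene symbols in the table. They were taken by symbol and not by any measured value: 18 alpha chains, 8 beta chains, the talins *Tln1* and *Tln2*, the kindlins *Fermt2* and *Fermt3*, the scaffold proteins *Vcl*, *Zyx*, *Pxn* and *Ilk*, and the kinases *Ptk2* and *Ptk2b*. All 36 were found. They were followed across RNA-seq of mouse peritoneal macrophages (PM) from 2 mouse lines with altered lipid droplet-associated hydrolase (LDAH), an enzyme of the lipid droplets that fill macrophage foam cells.

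Each of the 4 groups had 4 samples of strain C57BL/6J. LDAH-Tg PM (genotype label "LDAH overexpression") carry *Ldah* under the *Csf1r* promoter and its intronic enhancer, which drive expression in macrophages and granulocytes, and their WT controls bear the label "LDAH ApoE control". LDAH-KO PM ("LDAH KO") come from mice in which a cassette replaced the start of the *Ldah* coding region in every tissue, and their WT controls are labelled "LDAH WT". All groups shared the same handling: PM were harvested 5 days after 3% thioglycolate and loaded with oxidized LDL (oxLDL) at 50 μg/ml for 48 h, so no unloaded cells enter any comparison. The *Apoe* genotype of the mice that gave these PM is not given in the sources used here, and *Apoe* itself had means from 7947 TPM (LDAH-Tg PM) to 10404 TPM (LDAH-KO PM). The study speaks of independent samples and biological replicates, and whether each came from a separate mouse is not given.

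The deposited values are the authors' means of each group in TPM, transcripts per 1000000, a level scaled by transcript length, so levels can be set between genes. No value of a single sample was given, so the values below have no SD, no p-value and no replicate check, the depth is unknown, and it cannot be said which neighbours in an order of levels differ beyond their spread. A ratio is the log2 ratio of a group's mean to that of its own controls after adding 0.5 TPM to each. Ratios are given for genes with a mean of at least 1 TPM over both groups and no group at 0. A gene is counted as past the factor when it differs by 1.5 times or more. *Ldah* itself had 124 TPM in LDAH-Tg PM against 28.5 TPM in their controls. Its mean was 44.5 TPM in the controls of LDAH-KO and 27.9 TPM in the knockout cells, 0.626 times the control level and about that of the controls of LDAH-Tg. This value covers the whole gene, exons outside the replaced part included, so it does not check the knockout. The 6 macrophage markers (*Adgre1*, *Csf1r*, *Cd68*, *Mertk*, *Fcgr1*, *Cd14*) all reached 1 TPM and summed to 3377 to 5230 TPM over the groups. T cell, NK cell, B cell, dendritic cell, mast cell and platelet markers stayed under 1 TPM each, and *Ly6g*, *Ncr1*, *Mcpt4* and *Epx* were listed at 0 throughout. Of the 4 eosinophil markers, *Siglecf* had 2.62 to 4.45 TPM and the others stayed under 1 TPM. Of the 4 endothelial markers, *Kdr* had 1.49 to 1.98 TPM and the others stayed under 1 TPM. Of the 6 resident peritoneal macrophage markers 3 reached 1 TPM, *Fcna* being the highest (13.8 to 27.8 TPM). Of the 5 neutrophil markers, *S100a8* had 63.8 to 107 TPM while *S100a9* stayed at or below 0.740 TPM and the others near 0. Low levels of fibroblast, mesothelial and smooth muscle markers were present, and they are given beside the results they move with.

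Integrins are receptors of an alpha and a beta chain that span the plasma membrane, bind extracellular matrix or counter-receptors on other cells, and connect them to the actin cytoskeleton. Talin and kindlin bind the tail of the beta chain and switch the receptor to its active form, and vinculin, paxillin, zyxin, ILK and the kinases FAK and Pyk2 gather on it. On macrophages the β2 integrins are the best known: αMβ2 (Mac-1, the complement receptor CR3) and αXβ2 (CR4) bind complement-coated particles and fibrinogen and serve adhesion and phagocytosis, while αLβ2 (LFA-1) binds ICAMs. The αV integrins bind matrix proteins with an RGD motif and take part in the uptake of apoptotic cells.

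The loaded PM expressed a short list of these receptors at high level. Of the 36 genes, 8 had a mean of at least 100 TPM in every group: the chains *Itgb2*, *Itgb1*, *Itgax* and *Itgam*, and *Tln1*, *Fermt3*, *Ilk* and *Ptk2b*. In all, 19 genes had at least 5 TPM in every group, 4 more (*Itga1*, *Itga9*, *Itgal* and *Fermt2*) reached between 1 and 5 TPM in some group, and 13 stayed under 1 TPM in every group. These 13 were *Itga2*, *Itga3*, *Itga7*, *Itga8*, *Itga10*, *Itga11*, *Itga2b*, *Itgad*, *Itgae*, *Itgb4*, *Itgb6*, *Itgb8* and *Tln2*, among them most laminin and collagen receptors, the platelet chain αIIb and the epithelial chains β4 and β6. *Itgb6* was listed at 0 in every group, and *Itga2* and *Itga11* were listed at 0 in some.

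**Figure D1:**
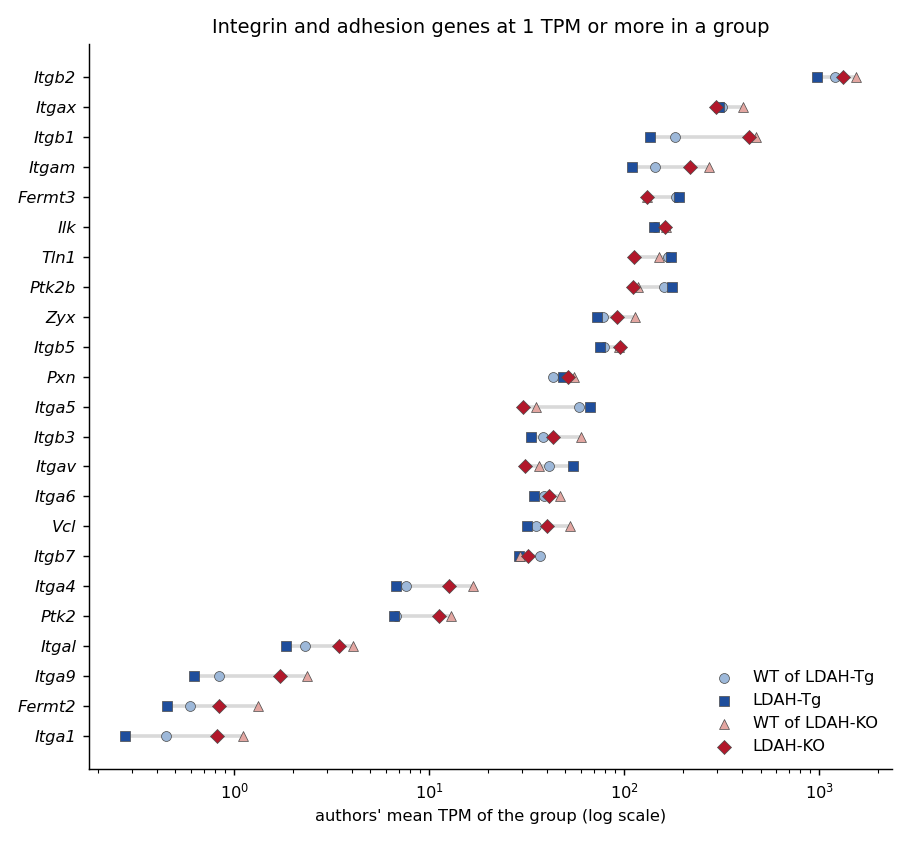
The authors' mean TPM on a log axis for the 23 genes that reached 1 TPM in at least 1 group, ordered by level; light blue circles are the WT controls of LDAH-Tg, dark blue squares LDAH-Tg, light red triangles the WT controls of LDAH-KO and dark red diamonds LDAH-KO. *Itgb2* lies furthest right, between 978 and 1542 TPM, and for *Itgb1* and *Itgam* both groups of the LDAH-KO line lie to the right of both groups of the LDAH-Tg line.

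*Itgb2* (ENSMUSG00000000290.13, chromosome 10 of GRCm38, 77530252 to 77565708), the beta chain that only leukocytes make, was first of the 36 in every group. Its mean was 1210 TPM in the controls of LDAH-Tg, 978 TPM in LDAH-Tg PM, 1542 TPM in the controls of LDAH-KO and 1324 TPM in LDAH-KO PM. It was lower in both altered genotypes than in their own controls, the log2 ratio being -0.31 in the transgenic and -0.22 in the knockout cells. *Itgb2* supplied 78.2%, 78.1%, 70.1% and 68.5% of the summed TPM of all beta chains in these groups, in the same order. Its level was 2.62, 2.34, 2.25 and 2.56 times the summed level of the alpha chains that pair with it.

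Among those partners *Itgax* and *Itgam* carried nearly all of the level. *Itgax* (ENSMUSG00000030789.9, chromosome 7, 128129547 to 128150657), the αX chain also known as CD11c, had 315 TPM in the controls of LDAH-Tg, 306 TPM in LDAH-Tg PM, 406 TPM in the controls of LDAH-KO and 296 TPM in LDAH-KO PM. Its level in LDAH-Tg PM stood close to that of the controls (log2 ratio -0.05), and that in LDAH-KO PM was lower by more than 100 TPM (-0.46). *Itgam* (ENSMUSG00000030786.18, chromosome 7, 128062640 to 128118491), the αM chain or CD11b, had 144 TPM, 110 TPM, 273 TPM and 217 TPM in the same order. It was lower in both genotypes, at -0.39 in the transgenic and -0.33 in the knockout cells. *Itgax* thus held 51.6%, 52.4%, 49.3% and 46.6% of the summed alpha chain TPM and *Itgam* 23.6%, 18.9%, 33.2% and 34.2%. The ratio of *Itgax* to *Itgam* was 2.19 in the controls of LDAH-Tg and 2.77 with the transgene, against 1.49 and 1.36 in the controls of LDAH-KO and in LDAH-KO PM.

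The table has a second entry under the symbol *Itgam*, ENSMUSG00000108596.1, which GENCODE M21 names *Gm49368* and places on the same strand over the *Itgam* locus (chromosome 7, 128062683 to 128128160). Reads of a shared stretch may have been assigned to either entry. It had 20.7 TPM in the controls of LDAH-Tg, 24.6 TPM in LDAH-Tg PM, 4.00 TPM in the controls of LDAH-KO and 2.88 TPM in LDAH-KO PM. That is 12.5%, 18.3%, 1.44% and 1.31% of the 2 entries together, so its share was larger in both groups of the LDAH-Tg line. With the entries summed, *Itgam* stood at -0.29 in the transgenic and -0.33 in the knockout cells. The ratio of *Itgax* to that sum was 1.91 in the controls of LDAH-Tg and 2.27 in LDAH-Tg PM. In the controls of LDAH-KO and in LDAH-KO PM it was 1.46 and 1.34.

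*Itgal*, *Itgam*, *Itgax* and *Itgad* lie in that order on chromosome 7, the gap from *Itgam* to *Itgax* being 11.1 kb, that from *Itgax* to *Itgad* 3.72 kb and that from *Itgal* to *Itgam* 728 kb. The levels of these neighbours were far apart. *Itgal* (ENSMUSG00000030830.18, chromosome 7, 127296260 to 127335138), the αL chain of LFA-1, had 2.31 TPM, 1.84 TPM, 4.06 TPM and 3.43 TPM, and was lower in both genotypes (-0.27 and -0.22). *Itgad*, the closest neighbour of *Itgax* and in the same orientation, stayed at or below 0.156 TPM in all groups.

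The promoter letters of 4 of these genes are shown because they belong to the 2 abundant neighbours, *Itgam* and *Itgax*, and to the chains with the highest and the lowest ratio in LDAH-Tg PM, *Itgav* and *Itgb1*. Each is the 250 bases before the RefSeq start of the gene on the plus strand of GRCm38.p6, 5′ to 3′. Capitals mark the letters GAGGAA, read on either strand (TTCCTC on the strand shown), the purine-rich core that ETS factors such as the myeloid factor PU.1 are known to bind.
Itgam, chr7:128062390-128062639: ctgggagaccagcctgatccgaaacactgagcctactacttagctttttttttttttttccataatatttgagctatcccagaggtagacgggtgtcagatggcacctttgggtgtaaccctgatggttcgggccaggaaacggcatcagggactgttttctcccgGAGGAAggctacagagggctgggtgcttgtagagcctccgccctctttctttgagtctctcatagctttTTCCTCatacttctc
Itgax, chr7:128129300-128129549: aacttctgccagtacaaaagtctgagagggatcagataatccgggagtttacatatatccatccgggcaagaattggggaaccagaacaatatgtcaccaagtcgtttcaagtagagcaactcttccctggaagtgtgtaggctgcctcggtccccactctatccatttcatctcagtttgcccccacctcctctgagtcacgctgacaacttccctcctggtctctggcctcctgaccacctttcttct
Itgav, chr2:83724147-83724396: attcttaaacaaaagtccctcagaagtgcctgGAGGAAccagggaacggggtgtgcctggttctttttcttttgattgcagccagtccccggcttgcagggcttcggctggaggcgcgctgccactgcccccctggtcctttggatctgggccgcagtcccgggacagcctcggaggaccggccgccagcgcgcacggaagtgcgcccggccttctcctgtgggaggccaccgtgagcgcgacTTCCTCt
Itgb1, chr8:128685404-128685653: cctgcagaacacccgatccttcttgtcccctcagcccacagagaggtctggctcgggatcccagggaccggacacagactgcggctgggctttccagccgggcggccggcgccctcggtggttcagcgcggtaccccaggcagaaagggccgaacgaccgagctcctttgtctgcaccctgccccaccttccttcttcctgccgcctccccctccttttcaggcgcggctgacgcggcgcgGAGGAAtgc

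The windows differ in base composition: *Itgam* has 6 CpG and *Itgax* 5, while *Itgav* has 18 and *Itgb1* 21. The letters GAGGAA occur 2 times in the windows of *Itgam* and *Itgav*, once in that of *Itgb1* and not in that of *Itgax*, which says only that these letters are not in this window. Of all 32851 promoter windows of that length in the RefSeq table, 23.3% hold them, and of the 10820 windows of genes with at least 1 TPM here, 22.5% do, so a match is common. RefSeq windows were matched for 24 of the 36 genes. Among the 14 of them with a mean of at least 1 TPM, the median was 11.5 CpG (1 to 32), beside a median of 16 for all windows of expressed genes, and 5 held GAGGAA. These ran from 1 CpG for *Fermt3* to 32 for *Ilk*, whose other window has 22, the window with more CpG being taken where a gene had several.

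*Itgb1* (ENSMUSG00000025809.15, chromosome 8, 128685654 to 128733200), the beta chain that pairs with most matrix-binding alpha chains, had 183 TPM in the controls of LDAH-Tg, 136 TPM in LDAH-Tg PM, 474 TPM in the controls of LDAH-KO and 438 TPM in LDAH-KO PM. It had the lowest log2 ratio of the 36 genes in LDAH-Tg PM, -0.43, while in LDAH-KO PM it was -0.11 as deposited and 0.01 after median-ratio scaling of the columns. Both groups of the LDAH-KO line had more than the 2 groups of the LDAH-Tg line. *Itgb1* made up 11.8% and 10.9% of the summed beta chain TPM in the LDAH-Tg line and 21.5% and 22.7% in the LDAH-KO line.

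Among the alpha chains with a ratio, *Itgav* and *Itga5*, which bind RGD motifs of vitronectin and fibronectin, had higher means in LDAH-Tg PM. *Itgav* (ENSMUSG00000027087.11, chromosome 2, 83724397 to 83806916), the αV chain, had 41.1 TPM in the controls of LDAH-Tg, 54.4 TPM in LDAH-Tg PM, 36.4 TPM in the controls of LDAH-KO and 30.9 TPM in LDAH-KO PM. Its log2 ratio of 0.40 was the highest of the 36 genes in LDAH-Tg PM, and in LDAH-KO PM it stood at -0.23. *Itga5* (ENSMUSG00000000555.6, chromosome 15, 103344286 to 103366763), the α5 chain of the classical fibronectin receptor, had 58.6 TPM, 67.1 TPM, 35.3 TPM and 30.2 TPM, with ratios of 0.19 and -0.22. Together these chains were higher in the transgenic and lower in the knockout cells. The ratio of *Itgb1* to *Itga5* was 3.12 in the controls of LDAH-Tg and 2.02 in LDAH-Tg PM, against 13.4 and 14.5 in the LDAH-KO line.

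The partners of αV did not follow it. *Itgb3*, the β3 chain, had 38.5 TPM in the controls of LDAH-Tg, 33.4 TPM in LDAH-Tg PM, 60.0 TPM in the controls of LDAH-KO and 43.4 TPM in LDAH-KO PM, and its ratio of -0.46 in LDAH-KO PM was the lowest of the 36 genes there as deposited (-0.20 in LDAH-Tg). *Itgb5*, the β5 chain that pairs with αV alone, had 78.8 TPM, 75.5 TPM, 94.1 TPM and 95.6 TPM, with ratios of -0.06 and 0.02. The level of *Itgav* relative to *Itgb3* plus *Itgb5* was 0.351 in the controls of LDAH-Tg and 0.499 in LDAH-Tg PM, and 0.236 and 0.222 in the controls of LDAH-KO and LDAH-KO PM.

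Chains of lymphocyte homing receptors and of laminin receptors were present at moderate level. *Itgb7*, the β7 chain that pairs with α4 or αE, had 36.9 TPM in the controls of LDAH-Tg, 28.9 TPM in LDAH-Tg PM, 29.1 TPM in the controls of LDAH-KO and 32.0 TPM in LDAH-KO PM. It was lower in the transgenic (-0.35) and higher in the knockout cells (0.14), the reverse of *Itgav* and *Itga5*. *Itga4*, the α4 chain that binds VCAM-1 and fibronectin, had 7.61 TPM, 6.80 TPM, 16.8 TPM and 12.6 TPM, with ratios of -0.15 and -0.40. The level of *Itgb7* was 4.85, 4.26, 1.74 and 2.54 times that of *Itga4*, and its other partner *Itgae* stayed under 1 TPM. *Itga6*, the α6 chain of laminin receptors, had 38.7 TPM, 34.5 TPM, 47.1 TPM and 41.2 TPM, with ratios of -0.16 and -0.19. *Itga9*, a chain for tenascin-C and osteopontin, had 0.836 TPM, 0.624 TPM, 2.37 TPM and 1.71 TPM, and passed the filter in the LDAH-KO comparison, at -0.38.

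**Figure D2:**
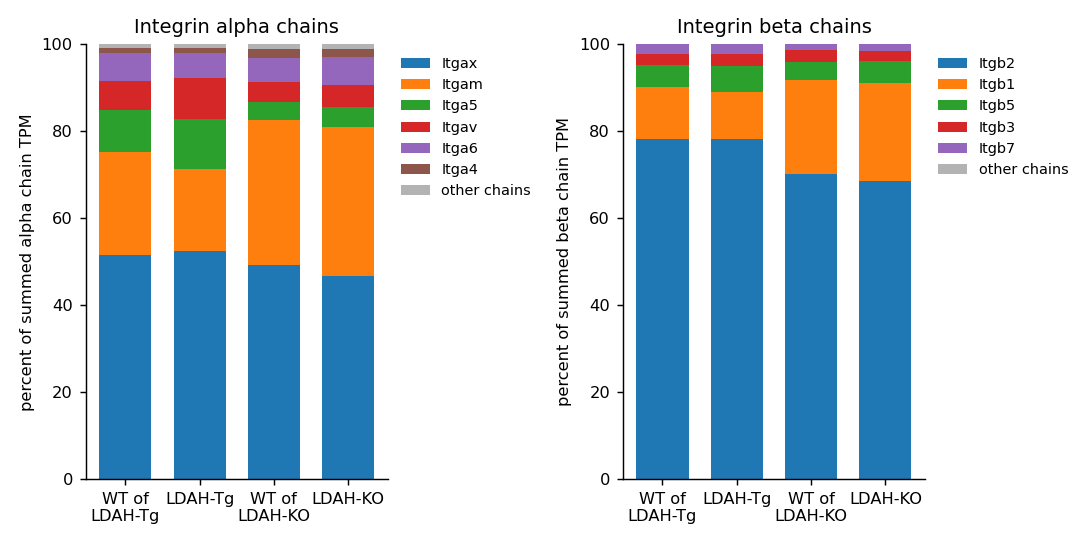
Stacked bars of the percent of summed alpha chain TPM (left) and of summed beta chain TPM (right) that each chain held in the 4 groups, from the authors' mean TPM; the axes run from 0 to 100%. *Itgax* and *Itgb2* take the largest part in every group, and *Itgb1* and *Itgam* take a larger part in both groups of the LDAH-KO line than in the LDAH-Tg line.

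Of the proteins that activate integrins, talin 1 had a lower mean in the knockout cells. *Tln1* (ENSMUSG00000028465.16, chromosome 4, 43531519 to 43562691), talin 1, had 169 TPM in the controls of LDAH-Tg, 173 TPM in LDAH-Tg PM, 151 TPM in the controls of LDAH-KO and 112 TPM in LDAH-KO PM, with log2 ratios of 0.04 and -0.43. It was thus near its control level in the transgenic cells and among the lowest ratios in the knockout cells. *Fermt3*, kindlin-3 of blood cells, had 185 TPM, 191 TPM, 131 TPM and 130 TPM, with ratios of 0.04 and -0.01, the latter positive after median-ratio scaling (0.11) and quantile normalization. *Fermt2*, kindlin-2 of most other cell types, had 0.596 TPM, 0.451 TPM, 1.32 TPM and 0.834 TPM, with a ratio of -0.45 in LDAH-KO. The TPM of *Fermt3* was 311, 423, 99.3 and 156 times that of *Fermt2*, whose low level makes these ratios uncertain.

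Among the scaffold proteins vinculin and zyxin had lower means in the knockout cells, while *Ilk* stood close to its controls in both genotypes. *Vcl*, vinculin, which ties talin to actin, had 35.2 TPM in the controls of LDAH-Tg, 31.7 TPM in LDAH-Tg PM, 52.5 TPM in the controls of LDAH-KO and 40.3 TPM in LDAH-KO PM (-0.15 and -0.38). *Zyx*, zyxin, a sensor of tension at actin bundles, had 77.8 TPM, 72.9 TPM, 114 TPM and 91.4 TPM (-0.09 and -0.32). Both genes were also lower, by less, in the transgenic cells. *Pxn*, paxillin, a docking platform for FAK, had 43.4 TPM, 48.5 TPM, 55.2 TPM and 51.5 TPM, at 0.16 in LDAH-Tg and at -0.10 in LDAH-KO, where median-ratio scaling gave 0.02. *Ilk*, the pseudokinase that joins β tails to PINCH and parvin, had 145 TPM, 143 TPM, 163 TPM and 162 TPM, with ratios of -0.02 and -0.01 that turned positive under quantile normalization in both comparisons and under median-ratio scaling in LDAH-KO (0.11). Of the kinases, *Ptk2b* (Pyk2) had 160 TPM, 176 TPM, 118 TPM and 111 TPM, with ratios of 0.14 and -0.09, the latter 0.04 after median-ratio scaling. *Ptk2* (FAK), with 6.79 TPM, 6.60 TPM, 13.0 TPM and 11.3 TPM and ratios of -0.04 and -0.19, was the lesser of the pair throughout. The TPM of *Ptk2b* was 23.5, 26.6, 9.12 and 9.88 times that of *Ptk2*.

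In the comparison of LDAH-Tg PM with their controls, 20 of the 36 genes had a ratio and 0 passed the factor of 1.5, where 1.94% of the 11389 genes compared did (1.26% higher and 0.685% lower). By any size 6 were higher and 14 lower, beside 50.5% higher and 49.5% lower among all genes. All 5 beta chains with a ratio and the 3 leukocyte alpha chains were lower, the 2 RGD-binding alpha chains (*Itga5* and *Itgav*) were higher, and the 8 adhesion proteins were divided, 4 higher and 4 lower, with *Ilk* higher after quantile normalization. The median log2 ratio was -0.18 for the 12 integrin chains and 0.01 for the 8 adhesion proteins, and -0.08 for all 20 beside 0.00 for all genes. By a smaller limit, at least 25% higher or at most 0.8 times the control, *Itgav* was higher, where 7.53% of all genes were, and *Itgam*, *Itgb1* and *Itgb7* were lower, where 5.08% were. *Itgam* no longer passed that limit once its entries were summed. In whole-culture RNA, fewer cells of a type and less RNA per cell cannot be told apart.

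In LDAH-KO PM, 22 of the 36 genes had a ratio and again 0 passed the factor of 1.5, where 2.22% of the 11286 genes compared did (0.381% higher and 1.83% lower). By any size 20 were lower and 2 (*Itgb5* and *Itgb7*) were higher, while 66.6% of all genes were lower, so most of the table leaned the same way. After median-ratio scaling 15 of the 22 were lower and 7 higher, and 40.5% of all genes were lower. The median log2 ratio of the 22 was -0.22 beside -0.08 for all genes. Under median-ratio scaling, quantile normalization and the other settings tried, the median of the genes described here minus that of all genes was between -0.14 and -0.15. By the 25% limit 8 were lower (*Itga4*, *Itga9*, *Itgam*, *Itgax*, *Itgb3*, *Tln1*, *Fermt2* and *Vcl*), 36.4% of the 22 where 9.84% of all genes were, and 0 were higher where 1.99% were. Among these, *Fermt2* met the filter only through the controls. The 9 adhesion proteins with a ratio were all lower as deposited, with a median of -0.19. *Fermt3*, *Pxn*, *Ilk* and *Ptk2b* were higher after median-ratio scaling.

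**Figure D3:**
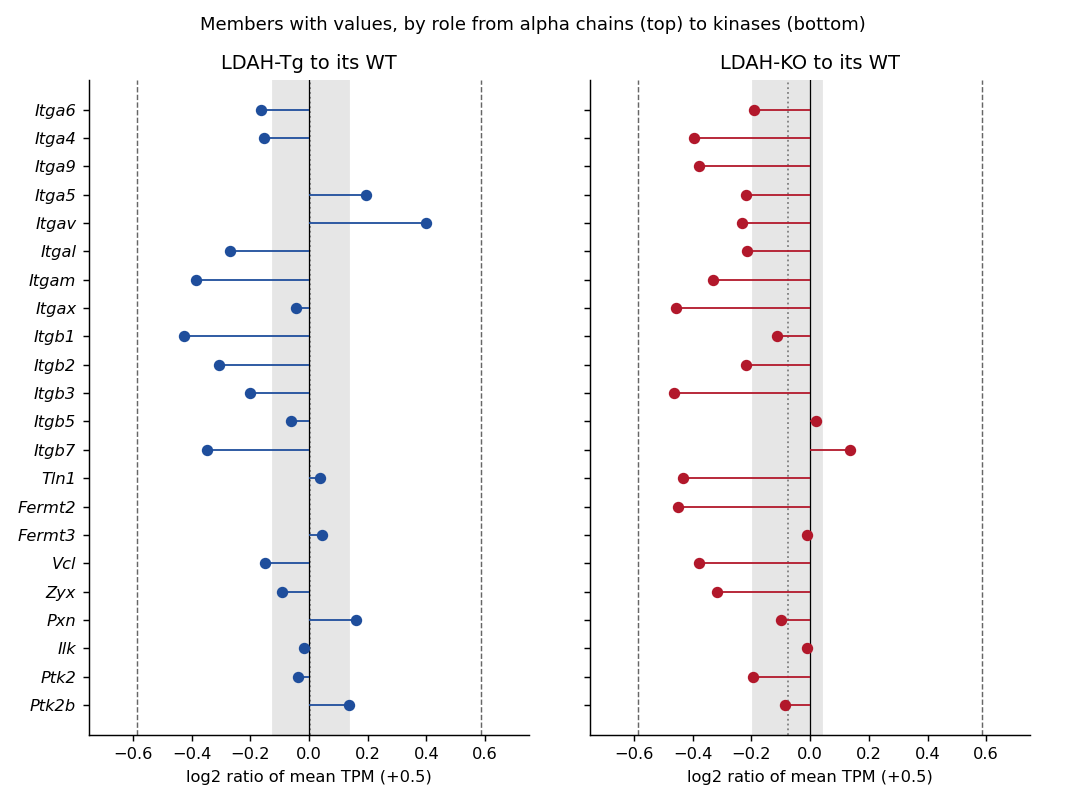
Ratios on the log2 scale of group means in TPM (0.5 added), for LDAH-Tg against its controls (left) and LDAH-KO against its controls (right), one line per gene from alpha chains at the top to kinases at the bottom; the grey band spans the lower to the upper quartile of all genes compared, the dotted line is their median and the dashed lines are a factor of 1.5. No gene reaches a dashed line, *Itgav* lies at 0.40 on the left and -0.23 on the right, and 20 of 22 lie below 0 on the right, which became 15 of 22 after median-ratio scaling.

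Set side by side, 20 genes had a ratio in both genotypes, each against its own controls. As deposited, 12 were lower in both, 6 were higher in transgenic and lower in knockout cells (*Itga5*, *Itgav*, *Tln1*, *Fermt3*, *Pxn* and *Ptk2b*), 2 (*Itgb5* and *Itgb7*) were the reverse, and 0 were higher in both. Among the 10855 genes with both ratios the shares were 33.9%, 32.3%, 17.1% and 16.7%. Of the 12 lower in both, *Itgb1* (0.01) and *Ilk* (0.11) were higher in LDAH-KO after median-ratio scaling. After quantile normalization *Ilk* was higher in both comparisons. Of the 6 that were opposite in the first sense, *Itga5*, *Itgav* and *Tln1* kept their sides under each scaling tried, whereas *Fermt3*, *Pxn* and *Ptk2b* were higher in LDAH-KO too after median-ratio scaling. The ratio of *Tln1* in LDAH-Tg was near 0, at 0.04 as deposited and 0.02 after median-ratio scaling. Whether the genotypes differ from each other was not tested.

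Markers of other cell types moved with the LDAH-KO comparison. The summed level of the 4 fibroblast markers (*Pdgfra*, *Dcn*, *Lum* and *Col3a1*) was 29.8 TPM in the controls of LDAH-KO and 15.4 TPM in LDAH-KO PM, and all 3 with a ratio were lower past the factor (median -1.17). The 5 mesothelial markers summed to 6.31 TPM and 3.12 TPM and the 4 smooth muscle markers to 12.2 TPM and 6.82 TPM, with *Myh11* and *Cnn1* near 0. In the LDAH-Tg line the sums in the controls and in LDAH-Tg PM were 19.9 TPM and 18.3 TPM for fibroblast, 5.51 TPM and 5.66 TPM for mesothelial and 5.84 TPM and 7.23 TPM for smooth muscle markers. The 2 smooth muscle markers with a ratio were higher in LDAH-Tg PM (median 0.34). Of the macrophage markers there, 1 was higher and 5 lower, with a median of -0.07, and *Adgre1* had 33.1 TPM and 22.4 TPM (-0.55). *Fermt2*, *Itga9*, *Itga1* and *Vcl*, which fibroblast, mesothelial and smooth muscle cells express too, were lower in LDAH-KO PM than in their controls. *Itga1* had 1.11 TPM in these controls and 0.816 TPM in LDAH-KO PM, and no ratio. As deposited, the same direction held for 20 of the 22 genes with a ratio, and after median-ratio scaling for 15 of the 22. The part of those cell types in the differences of either line was not tested. Of the 6 macrophage markers 3 were higher and 3 lower in LDAH-KO PM, with a median of -0.07, near that of all genes. *Cd68*, most of their sum, had 3321 TPM in the controls and 3023 TPM in LDAH-KO PM, while *Adgre1* had 146 TPM and 147 TPM. The leukocyte chains *Itgam*, *Itgax*, *Itgal* and *Itgb2* were lower in LDAH-KO PM as well. *Itgb7* was higher there (0.14), and *Fermt3* of blood cells stood at -0.01 as deposited and at 0.11 after median-ratio scaling.

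The controls of both lines differed from each other in more genes than either genotype did from its controls. Of 21 genes with a ratio between the controls of LDAH-Tg and those of LDAH-KO, 1 was higher past the factor of 1.5 in the controls of LDAH-Tg (*Itga5*, 0.72), where 12.1% of all genes were, and 7 were lower, where 26.6% were. The lower ones were *Itgb1* (-1.37), *Itga9* (-1.11), *Itga4* (-1.09), *Itgam* (-0.92), *Ptk2* (-0.89), *Itgal* (-0.70) and *Itgb3* (-0.63). Of these, *Itga9* met the filter only through the controls of LDAH-KO. In all, 38.6% of the 11400 genes compared passed the factor in either direction, and the median was -0.35 for the 21 genes and -0.17 for all genes. By any size 6 were higher and 15 lower, beside 39.3% and 60.7% of all genes, and by the 25% limit 4 were higher and 12 lower, beside 22.3% and 41% (63.3% of all genes in either direction). The β1 chain and its partners α4 and α9 were lower in the controls of LDAH-Tg, whereas α5, which also pairs with β1, was higher. *Fermt3* (0.50), *Ptk2b* (0.43) and *Itgb7* (0.34) leaned the same way as *Itga5*. Of the 6 macrophage markers, 3 were higher in the controls of LDAH-Tg and 3 lower, with a median log2 ratio of 0.15. *Cd68* had 4959 TPM there against 3321 TPM in the controls of LDAH-KO, and *Adgre1* 33.1 TPM against 146 TPM. *S100a8* was higher in the controls of LDAH-Tg (0.74). The fibroblast sum was 19.9 TPM against 29.8 TPM and the smooth muscle sum 5.84 TPM against 12.2 TPM, with medians of -0.61 and -1.10, and the part of these cells in the differences was not tested. The mouse line and the ApoE named in the label of the LDAH-Tg controls cannot be told apart here.

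**Figure D4:**
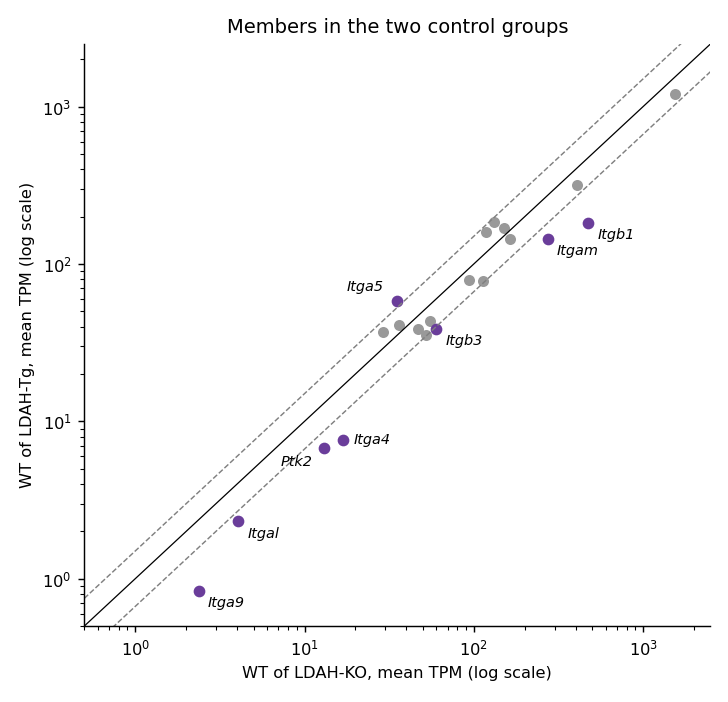
The authors' mean TPM in the WT controls of LDAH-KO (horizontal) and of LDAH-Tg (vertical), both on log axes, for the 21 genes with a ratio between them; the solid line is equality, the dashed lines a factor of 1.5, and purple points passed that factor. *Itgb1*, at 474 TPM against 183 TPM, and *Itga9*, at 2.37 TPM against 0.836 TPM, lie furthest below equality, and *Itga5* is the only purple point above it.

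The other genes of integrin adhesion, were taken in 6 lists compiled from textbook roles, and their counts are read beside all genes, of which 49.5% were lower in LDAH-Tg and 66.6% in LDAH-KO. Of the list of talin recruitment and integrin inactivation, which holds the Rap1 switch that brings talin to integrins, 13 genes had a ratio. In LDAH-Tg 7 were higher and 6 lower and in LDAH-KO 3 and 10, with medians of 0.01 and -0.08 and 0 past the factor. *Rap1a* had 106 TPM in the controls of LDAH-Tg and 85.9 TPM in LDAH-Tg PM (-0.31), while in the LDAH-KO line it had 156 TPM and 152 TPM. *Rap1gap*, which switches Rap1 off, had 3.82 TPM, 4.93 TPM, 2.28 TPM and 1.41 TPM, at 0.33 with the transgene and -0.54 in the knockout.

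In the list of the ILK complex and LIM adaptors 12 genes had a ratio, 3 higher and 9 lower in LDAH-Tg and 2 higher and 10 lower in LDAH-KO, with medians of -0.05 and -0.10. One passed the factor in LDAH-KO, where 1.83% of all genes were lower past it. This was *Parva*, α-parvin, which links ILK to actin, with 1.99 TPM in the controls and 0.981 TPM in LDAH-KO PM (-0.75). It met the filter only through the controls. The fibroblast, mesothelial and smooth muscle sums given above were lower in the same comparison, and their part in this difference was not tested. *Rsu1*, a partner of the ILK complex and far more abundant, had 172 TPM in the controls of LDAH-Tg and 134 TPM in LDAH-Tg PM (-0.35). Among the genes of FAK and Src signalling, 12 of 26 were higher in LDAH-Tg and 3 of 27 in LDAH-KO, with medians of -0.03 and -0.15 and 0 past the factor. *Git2*, a paxillin-binding regulator of small GTPases, had the highest ratio of the list in LDAH-Tg PM (35.1 TPM to 42.5 TPM, 0.27). *Arhgap26*, a FAK-binding RhoGAP, had the lowest ratio in LDAH-KO PM (2.90 TPM to 1.78 TPM, -0.58). Of the 17 genes that link adhesions to actin, 7 were higher in LDAH-Tg and 2 in LDAH-KO, with medians of -0.03 and -0.16. Among them tensin 1, *Tns1*, had 56.5 TPM in the controls and 43.7 TPM in LDAH-KO PM (-0.37).

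The ligands were the list furthest from the background in LDAH-KO. Of 11 ligand genes with a ratio there, 2 were higher and 9 lower, 5 of them past the factor where 1.83% of all genes were, with a median of -0.48. *Fn1*, fibronectin, the ligand of α5β1, had 21.5 TPM in the controls of LDAH-KO and 9.16 TPM in LDAH-KO PM (-1.19), while in the LDAH-Tg line it had 29.8 TPM and 28.1 TPM (-0.08). *Thbs1*, thrombospondin 1, a ligand of αV and β1 integrins, had 7.26 TPM and 4.53 TPM in the LDAH-KO line (-0.63). *Ctgf* (2.13 TPM to 0.901 TPM) and *Cyr61* (1.99 TPM to 1.01 TPM), matricellular ligands of αV and αM integrins, were lower as well, and so was the α4β1 ligand *Vcam1* (1.66 TPM to 0.909 TPM, -0.62), named after its values were seen to complete the 5. *Ctgf* and *Vcam1* were under 1 TPM in LDAH-KO PM and met the filter only through their controls. The part of the other cell types in the ligand levels was likewise not tested. The most abundant ligands, also named after their values were seen, were not among these 5. *Spp1*, osteopontin, had 6825 TPM, 5177 TPM, 6539 TPM and 7158 TPM (-0.40 and 0.13), and *Mfge8*, which bridges apoptotic cells to αV integrins, 2715 TPM, 2616 TPM, 2203 TPM and 1880 TPM (-0.05 and -0.23). In LDAH-Tg 3 of 10 ligands were higher and 7 lower, 0 past the factor, with a median of -0.05.

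Of the membrane partners of integrins, tetraspanins, syndecans and other membrane proteins that share their complexes, 12 of 13 were lower in LDAH-Tg PM, where 49.5% of all genes were, with a median of -0.11. In LDAH-KO PM 9 of 12 were lower, near the 66.6% of all genes, with a median of -0.03. *Cd36*, a receptor of oxLDL and thrombospondin, was the one past the factor in LDAH-Tg, where 0.685% of all genes were lower past it. It had 3276 TPM in the controls and 2113 TPM in LDAH-Tg PM (-0.63). It is listed at 0 in both groups of the LDAH-KO line, which can be a failed estimate in the table rather than a lack of transcript, and no ratio was taken there. *Cd9*, a tetraspanin, had 1924 TPM and 1550 TPM in the LDAH-Tg line (-0.31) and 1861 TPM and 1857 TPM in the LDAH-KO line (0.00 on the log2 scale). *Cd47*, a partner of αVβ3, had 179 TPM, 146 TPM, 151 TPM and 164 TPM (-0.29 and 0.12). *Cav1*, caveolin 1, was the one past the factor in LDAH-KO, where 1.83% of all genes were lower past it. Its mean was 5.87 TPM in the controls of LDAH-KO and 3.45 TPM in LDAH-KO PM (-0.69).

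**Figure D5:**
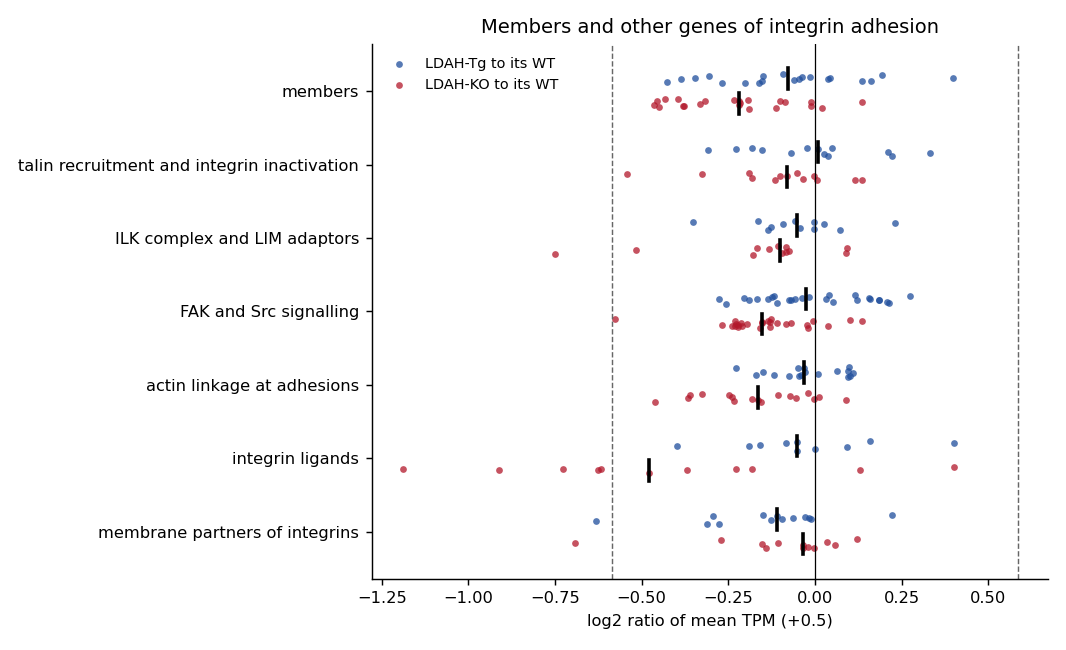
Ratios on the log2 scale of group means in TPM (0.5 added) for the genes described here (top line, named members) and 6 further lists of integrin adhesion genes, with LDAH-Tg against its controls in blue and LDAH-KO against its controls in red; each point is a gene, the black bar is the median of its list and the dashed lines are a factor of 1.5. The ligands in LDAH-KO have the lowest median, -0.48, with 5 points past the left dashed line.

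Some of these genes share their locus with another gene. In GENCODE M21, 23 of the 36 overlap another annotated gene, and the sources do not give the strand setting used in counting, so reads of antisense partners may not have been told apart. Of the 19 genes with at least 5 TPM, 7 are clear of any overlap (*Itgax*, *Itgb1*, *Itgb2*, *Itgb3*, *Itgb5*, *Itgb7* and *Ptk2b*). The most expressed overlapping partners were *Taf10* at the *Ilk* locus (up to 351 TPM), *Ap3m1* at *Vcl* (up to 80.3 TPM) and *Creb3* at *Tln1* (up to 58.3 TPM). Of the 8 genes with a ratio that are clear of overlap (the 7 above and *Itgal*), 7 were lower in LDAH-Tg, with a median of -0.23. Among all genes 49.5% were lower there, with a median of 0.00. In LDAH-KO 6 of the 8 were lower, with a median of -0.16, beside 66.6% and -0.08 for all genes. Of these 6, *Itgb1* and *Ptk2b* were higher after median-ratio scaling.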

How the data were processed

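RNA-seq of oxLDL-loaded PM was made by the authors from poly(A)-enriched libraries (4 groups, 16 samples). Per the labels, GRCm38 (mm10) was the genome. Trimmomatic and STAR 2.4.2a were used for trimming and alignment, and bcl2fastq 2.17.1.14, HTSeq and Cuffdiff 2.2.1 are also named in the submitters' notes. The tool that made the TPM values and its strand setting are not given in the sources used here. The deposited TPM values are the authors' mean of each group for 48432 gene lines, each column summing to 1000000. A further line holding that total was left out. The planned tests across samples could not be made on means, so no SD, p-value or interval is given and depth is unknown.

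From these means, log2 ratios were computed after adding 0.5 TPM, for genes with a mean of at least 1 TPM over both groups and none at 0. Calls use a factor of 1.5, with a second limit of 25% (0.8 times for lower genes). A symbol with several lines (116 further lines) stands for its highest. Overlaps and coordinates come from GENCODE M21, promoters from RefSeq (GRCm38.p6). Genes named are those with at least 5 TPM in any group or past the factor, and up to 4 per further list. *Fermt2*, *Itga1*, *Spp1*, *Mfge8*, *Vcam1* and *Itgad* are given values outside that rule. The members and lists were chosen with earlier results of these data known. The steps were tested on simulated data. Python 3.11.15, numpy 2.4.6, pandas 2.3.3 and matplotlib 3.10.9 were used. Other pseudocounts, filters, scalings, factors and the sum of a symbol's lines were tried as alternatives.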

Additional observations from a re-analysis of the deposited data

How the results depend on the processing

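No paired analysis was possible because the columns are means of a group, and for the same reason no sample was left out in turn. For LDAH-Tg the median kept its sign and 0 genes passed the factor of 1.5 under each pseudocount, filter and scaling tried. Without the filter 11 of 34 genes were higher and 23 lower, and by the 25% limit the counts were 1 higher and 3 lower. Of all genes, 48.1% were lower without the filter, and 7.53% were higher and 5.08% lower by the 25% limit. For LDAH-KO, 1 gene (*Fermt2*) was lower past 1.5 with a pseudocount of 0.1 or with none, 31 of 34 were lower without the filter, and 8 by the 25% limit. Of all 11286 genes, 266 and 282 were lower past 1.5 with these pseudocounts. Without the filter 66.5% of all genes were lower, and by the 25% limit 9.84% were. Median-ratio scaling moved the median of all genes by 0.12 and that of the members to -0.10, with 7 higher by any size and 3 lower by the 25% limit. Of all genes, 40.5% were lower by any size with that scaling and 3.87% by the 25% limit. Quantile normalization gave 4 higher by any size and 5 lower by the 25% limit. With it 47.5% of all genes were lower by any size and 4.00% by the 25% limit. The share of calls that are higher among all genes went from 17.2% to 32.5% and 34.8%. Between the control groups the median of all genes shifted by 0.15 with median-ratio scaling and 0.18 with quantile normalization, and the share of calls that are higher from 31.2% to 47.0% and 50.6%. The members' median there was -0.20 and -0.24, with 3 and 2 higher past 1.5. Among all genes, 1975 of 11359 and 2118 of 11364 were higher past it. Without the filter the members' median was -0.19 (23 lower, 12 higher), and 57.6% of all genes were lower. The 25% limit and a factor of 2 gave 4 higher and 12 lower, and 0 higher and 3 lower. Of all 11400 genes, 2547 were higher and 4672 lower by the 25% limit. By the factor of 2, 533 were higher and 1172 lower. Signs that turned were *Ilk* in LDAH-Tg (0.01, quantile) and, in LDAH-KO, *Itgb1* (0.01), *Fermt3* (0.11), *Pxn* (0.02), *Ilk* (0.11) and *Ptk2b* (0.04) with median-ratio scaling, and *Fermt3* (0.0046) and *Ilk* (0.0061) with quantile normalization. The cause was not tested. The unknown depth limits above all the genes under 1 TPM.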
